A study of Homo sapiens with 6 samples.

Results

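The genes described here encode 10 intermediate filament proteins of classes III and IV. They were chosen by name, NEFL, NEFM, NEFH, INA, PRPH, VIM, NES, GFAP, SYNM and DES, and all 10 were found among the 47470 genes listed in the count files. RNA-seq was performed on HEK293T, a human embryonic kidney cell line that carries the large T antigen of SV40, cultured for 1 day with VPA (valproic acid, which inhibits histone deacetylases) at 1 mM or left untreated, with 3 libraries per condition. The cells of both conditions were of wild-type genotype, the control cells received nothing, and libraries were prepared with a strand-specific mRNA protocol. Nothing in the labels says that the 3 libraries came from separate cultures, so p-values measure only the spread between these libraries. Counts on genes ranged from 18622267 to 18828495 per library, and no library was set aside.

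Intermediate filaments are rope-like polymers of the cytoskeleton that share a central coiled-coil rod. Class III holds vimentin, desmin, GFAP and peripherin, which can assemble on their own, and class IV holds the neurofilament subunits and alpha-internexin, which copolymerise in axons and set their calibre. Nestin and synemin are large relatives that join filaments built by other members. Their expression is a classical marker of cell type, with vimentin in mesenchymal and many cultured cells, desmin in muscle, GFAP in astrocytes, nestin in neural progenitors and neurofilaments in mature neurons.

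VPA-treated cells had more transcript of 9 of the 10 filament genes and less of 1, VIM. All 10 genes passed the filter on low counts and an adjusted p under 0.05 (edgeR's quasi-likelihood test, Benjamini-Hochberg adjustment over all 15298 genes tested), 9 of them higher and 1 lower. NEFL, NEFH, PRPH, NES, GFAP and DES, 6 genes, also had a log2 fold change of at least 1 and are referred to as up-regulated. The filter asked for about 10 counts in at least 3 libraries. NEFH had 7, 9 and 11 untreated counts, PRPH 16, 8 and 8, and DES 5, 9 and 5. These 3 genes thus entered the test only through the VPA-treated libraries, so the filter favoured their being called higher and not overlapping. The share of all tested genes given next includes genes that entered in the same way. Over all tested genes 12.0% were up-regulated at both thresholds and 0.503% were lower at both, 32.9% were higher at the adjusted p alone and 30.0% were lower at it. The median log2 fold change was 1.34 over the 10 genes and 0.0058 over all tested genes. Among genes past the adjusted p, 52.3% were higher with TMM scaling, 73.9% with library totals and 91.8% with scaling to ribosomal protein genes. With TMM 5037 genes were higher and 4591 lower, and with ribosomal protein genes 9360 and 831. The median of all tested genes moved to 0.14 with library totals. In each of the 10 genes the 2 conditions did not overlap, as was the case for 34.8% of all tested genes upwards and 31.0% downwards.

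**Figure D1:**
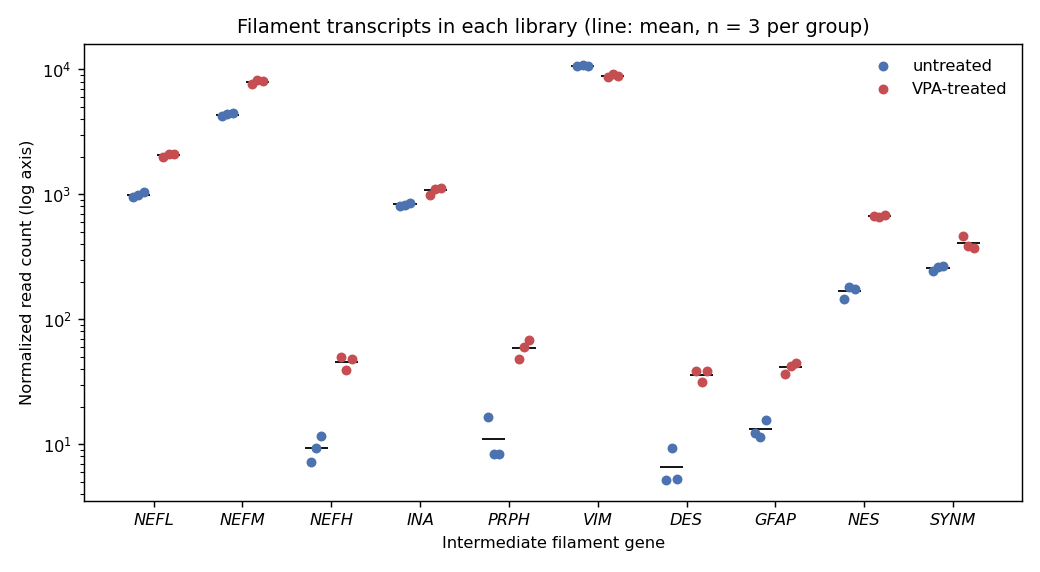
Normalized read count (log axis) of each filament gene in the 3 untreated and 3 VPA-treated libraries, with the mean of each group as a line. VIM is the gene whose treated libraries, between 8703 and 9179, lie below the untreated ones, and the other 9 genes lie above.

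The neurofilament triplet consists of NEFL, the light chain that forms the filament core, and NEFM and NEFH, the medium and heavy chains with long side arms. NEFL occupies bases 24950955 to 24956612 of chromosome 8 (GRCh38.p14, minus strand) and NEFM bases 24913761 to 24919093 (plus strand), 31.9 kb apart with no other tested gene between their starts. NEFL had 950.4, 987 and 1048 normalized counts with no treatment and 1989, 2108 and 2109 in the VPA-treated libraries. Every treated library was thus well above every untreated one. NEFL rose from 995 ± 49.1 to 2069 ± 68.7 (SD, n = 3 each), by 1.06 ± 0.049 on the log2 scale (SE, adjusted p = 6.13e-14 in edgeR). The 95% interval of this change, 0.95 to 1.16, spans the fold threshold, and NEFL was no longer called when a log2 fold change beyond 1 was itself tested (glmTreat, adjusted p = 0.453).

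NEFM was the most counted neurofilament gene. It had 4205, 4374 and 4464 normalized counts in the untreated and 7592, 8197 and 8066 in the VPA-treated libraries. The rise from 4348 ± 131 to 7952 ± 318 (SD, n = 3 each) amounted to 0.87 ± 0.042 on the log2 scale (SE, adjusted p = 1.24e-13 in edgeR), below the fold threshold. With library totals as the scaling it was 1.00 and passed that threshold too. Large changes were rare at this level of counts, and 99.68% of the 618 tested genes averaging 5000 or more normalized counts had a lower fold change than NEFM. Likewise 99.25% of the 4025 genes between 1000 and 5000 normalized counts had a lower fold change than NEFL.

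NEFH, on chromosome 22 from 29480218 to 29491390 on the plus strand, was scarce. It had 7.25, 9.42 and 11.5 normalized counts with no treatment and 49.8, 39.5 and 47.9 in the VPA-treated libraries. It changed by 2.27 ± 0.25 on the log2 scale (SE, adjusted p = 7.44e-08 in edgeR). At these counts the 95% interval of the fold change was wide, 3.36-fold to 6.90-fold. Up-regulation was also frequent among scarce genes, with 29.4% of the 3102 tested genes under 50 normalized counts called. Of all 3102, 89.9% had a lower fold change than NEFH.

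INA and PRPH encode the other 2 subunits that copolymerise with the triplet, alpha-internexin in central neurons and peripherin in peripheral ones. INA, on chromosome 10 from 103277138 to 103290346 on the plus strand, had 813, 818 and 861 normalized counts in the untreated and 995, 1114 and 1122 in the VPA-treated libraries. The difference, 830.3 ± 26.5 against 1077 ± 71.2 (SD, n = 3 each), was larger than the spread between libraries but small, at 0.37 ± 0.056 on the log2 scale (SE, adjusted p = 5.32e-06 in edgeR). It was the smallest rise among the 9 higher genes. NT5C2 overlaps INA by 468 bases on the opposite strand in GENCODE 44 and had 2485 counts over the untreated and 2265 over the VPA-treated libraries. PRPH, on chromosome 12 from 49295147 to 49298686 on the plus strand, had 16.6, 8.37 and 8.40 normalized counts in the untreated and 47.9, 59.7 and 68.9 in the VPA-treated libraries. Untreated replicate 1 was the highest of its group, and no treated library came near it. PRPH changed by 2.39 ± 0.25 on the log2 scale (SE, adjusted p = 4.32e-08 in edgeR). It rose to 2.79 when untreated replicate 1 was left out, and no library left out brought it under 2.22. In GENCODE 44 the transcript TROAP-AS1 spans all 3540 bases of PRPH on the opposite strand. TROAP-AS1 had 42 counts over the untreated and 98 over the VPA-treated libraries (log2 fold change 1.09, adjusted p = 0.00084 in edgeR), and although the libraries were strand-specific, the strand setting of the counting is not given in the sources used here, so reads of the pair may not have been told apart. Without untreated replicate 3 or VPA-treated replicate 1 TROAP-AS1 lay at 0.95 and 0.92.

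VIM, the class III gene of mesenchymal and most cultured cells, was the most counted of the 10. It lies on chromosome 10 from 17228241 to 17237593 on the plus strand. Its normalized counts were 10644, 10899 and 10674 in the untreated and 8703, 9179 and 8909.8 in the VPA-treated libraries. The fall amounted to -0.27 ± 0.040 on the log2 scale (SE, adjusted p = 5.23e-06 in edgeR), and the counts decreased by 16.8% in the fit. A fall of this size was common among abundant genes. Of the 618 genes averaging 5000 or more normalized counts 80.7% were lower at the adjusted p, and 44.7% of all 618 had a lower fold change than VIM. When the libraries were scaled to ribosomal protein genes, a scaling chosen after the data were seen, the median of all genes moved to 0.28 and VIM to 0.0091 (adjusted p = 0.848 in edgeR). The direction of VIM thus held with TMM, DESeq2 size factors and library totals and was lost with that scaling, while the other 9 genes stayed higher with each of these scalings. VIM-AS1, which overlaps the first part of VIM on the opposite strand by 1778 bases in GENCODE 44, had 458 counts over the untreated and 325 over the VPA-treated libraries.

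The muscle and astrocyte members of class III were close to silent in untreated cells. DES, desmin, on chromosome 2 from 219418377 to 219426734 on the plus strand, had 5.18, 9.42 and 5.25 normalized counts in the untreated and 38.3, 31.8 and 38.3 in the VPA-treated libraries. It had the largest fold change of the 10 genes, 2.43 ± 0.29 on the log2 scale (SE, adjusted p = 2.3e-07 in edgeR). The 95% intervals of DES, PRPH, NEFH, NES and GFAP all overlapped, so that their order is not resolved. GFAP (chromosome 17, bases 44903159 to 44915500, minus strand) had 12.4, 11.5 and 15.7 normalized counts in the untreated and 36.4, 42.4 and 45.0 in the VPA-treated libraries. GFAP changed by 1.63 ± 0.23 on the log2 scale (SE, adjusted p = 2.78e-06 in edgeR). CCDC103 overlaps GFAP by 2232 bases on the opposite strand and also had more counts, 310 over the untreated and 517 over the VPA-treated libraries. As the strand setting of the counting is not given, reads of GFAP and CCDC103 may not have been told apart. In these bulk libraries a few cells with much transcript and many cells with little cannot be told apart.

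NES, nestin of neural progenitors, had the smallest p of the 10 genes. It occupies bases 156668763 to 156677407 of chromosome 1 (minus strand), and no gene overlaps it in GENCODE 44. NES had 146, 181 and 174 normalized counts in the untreated and 677, 664 and 685 in the VPA-treated libraries. The treated libraries had a CV of 1.56% and the untreated ones of 11.1%. Read sampling alone gives 3.85% at the treated mean, so the smaller value says little about the spread between replicates. The lowest treated library was far above the highest untreated one. The rise from 167 ± 18.6 to 675 ± 10.5 (SD, n = 3 each) amounted to 2.01 ± 0.077 on the log2 scale (SE, adjusted p = 2.8e-15 in edgeR). Of the 5118 tested genes between 200 and 1000 normalized counts 5.78% were up-regulated, and 99.1% had a lower fold change than NES. SYNM, synemin, a large protein that joins vimentin and desmin filaments, lies on chromosome 15 from 99105080 to 99141767 on the plus strand. It had 245, 264 and 267 normalized counts in the untreated and 466, 383 and 374 in the VPA-treated libraries. VPA-treated replicate 1 was the highest, and the other treated libraries were also above every untreated one. SYNM changed by 0.66 ± 0.086 on the log2 scale (SE, adjusted p = 9.09e-07 in edgeR).

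**Figure D2:**
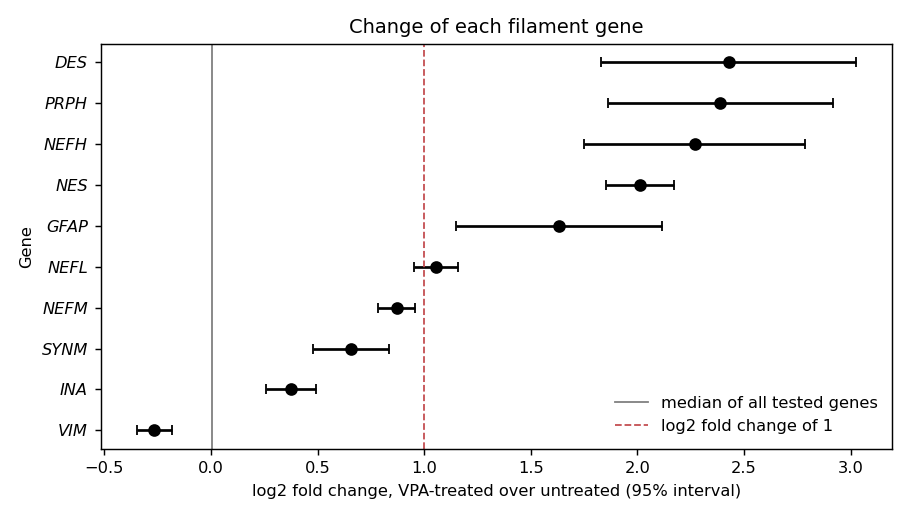
log2 fold change of each filament gene in VPA-treated over untreated cells with its 95% interval (n = 3 libraries per group), the median of all tested genes (grey line) and the fold threshold of 1 (dashed). NES, GFAP, NEFH, PRPH and DES lie wholly beyond the threshold, NEFL spans it, and VIM is the gene below 0.

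**Figure D3:**
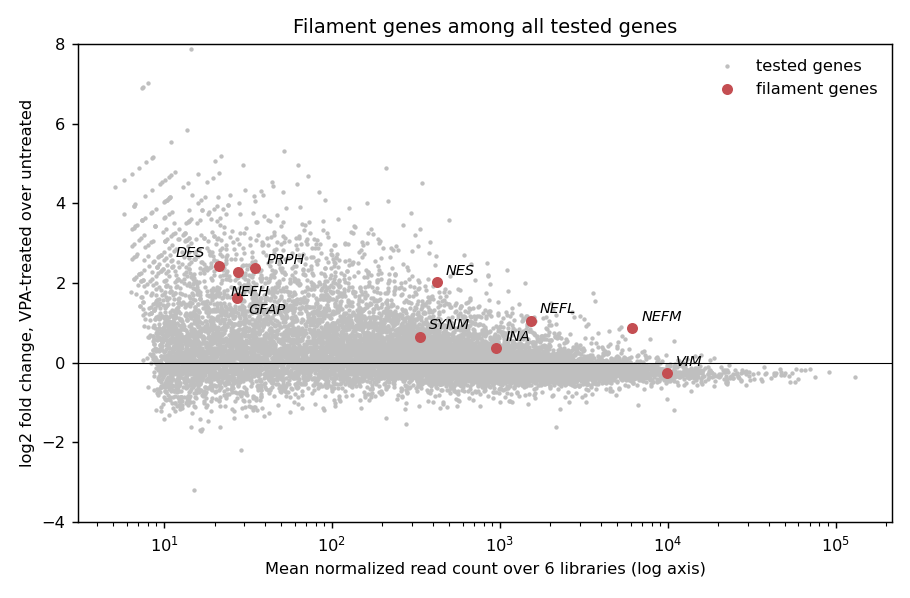
Fold change of all 15298 tested genes (grey) and of the filament genes (red) against the mean normalized read count over the 6 libraries (log axis). NEFM, NEFL and NES stand at the upper edge of genes of similar count, while NEFH, PRPH, DES and GFAP lie within the broad scatter of scarce genes.

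Relative levels between the genes were compared per kb of exon sequence, the union of all exons in GENCODE 44. On this scale VIM was first in untreated cells with 2075 ± 26.9 normalized counts per kb and NEFM second with 1196 ± 36.1 (SD, n = 3 each). INA and NEFL followed at 255 ± 8.15 and 253 ± 12.5 and overlapped between libraries, as did SYNM and NES at 33.3 ± 1.48 and 30.0 ± 3.34. PRPH, DES, NEFH and GFAP were under 5 on average. In VPA-treated cells NES, at 121 ± 1.89 per kb, was above SYNM, at 52.5 ± 6.48, in every library, and NEFL, at 525 ± 17.4, was above INA, at 331 ± 21.9. NEFM, at 2188 ± 87.5, then exceeded VIM, at 1725 ± 46.1, but this order rests on the length used. Per kb of coding sequence VIM stayed first, at 6219 ± 166 against 2894 ± 116 for NEFM. NES remained above SYNM and NEFL above INA in VPA-treated cells on the coding scale as well. On that scale NEFL was already above INA in untreated cells, with its lowest library at 583 and the highest of INA at 575. SYNM was above NES there in every untreated library.

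The make-up of the filament transcript pool, the summed level per kb of the 10 genes, differed between the conditions. The neurofilament group, NEFL, NEFM, NEFH, INA and PRPH, made up 43.9%, 44.0% and 45.3% of the pool in the untreated and 60.9%, 61.8% and 62.1% in the VPA-treated libraries. VIM made up 54.5%, 54.2% and 52.9% against 34.9%, 34.6% and 34.1%. The share of NES was 0.778% ± 0.074 before and 2.43% ± 0.099 after treatment (SD, n = 3 each), and that of GFAP, SYNM and DES together 0.963% ± 0.038 and 1.42% ± 0.19. None of these shares overlapped between the conditions (exact permutation test, two-sided, p = 0.1 for each, which is as low as this number of libraries can give). On the coding scale the neurofilament group made up 26.7% ± 0.67 of the pool without and 43.2% ± 0.62 with VPA, so the difference, 16.5 percentage points, was close to the 17.2 of the exon scale. The share of NES on that scale was lower, at 0.332% and 1.22%. The size of the whole pool depended on the length used. Per kb of exon it was 1.30 times as large in VPA-treated cells, at 4996 ± 163 against 3853 ± 68.4 normalized counts, and per kb of coding sequence 1.11 times, at 11429 ± 352 against 10337 ± 144 (SD, n = 3 each, p = 0.1 for both by the exact permutation test). The 5 genes of the neurofilament group did not contribute alike. Of the summed gain per kb of exon over the genes that rose, NEFM made up 66.4% and NEFL 18.3%. INA made up 5.08%, PRPH 1.22% and NEFH 0.641%.

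**Figure D4:**
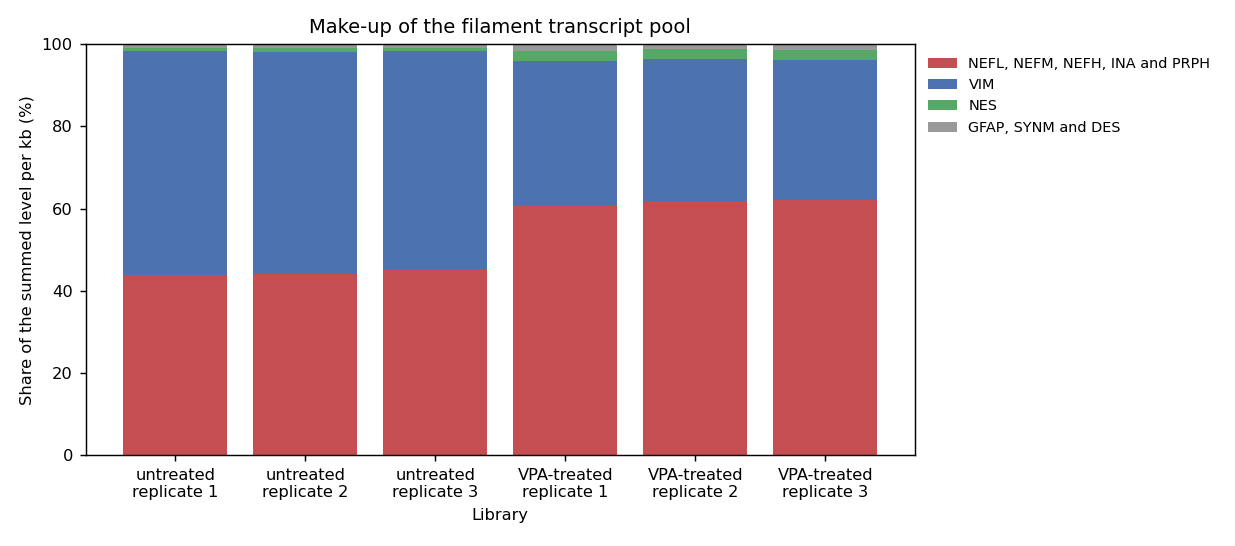
Share (%) of the summed level per kb of exon of the 10 filament genes in each library, split into the neurofilament group, VIM, NES and the remaining genes. The neurofilament group takes 43.9% to 45.3% of the pool in untreated and 60.9% to 62.1% in VPA-treated libraries, and VIM takes 52.9% to 54.5% and 34.1% to 34.9%.

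Ratios of read counts within a library need no scaling between libraries and show how unevenly the subunits rose. The log2 ratio of NEFM to NEFL was 2.15, 2.15 and 2.09 in the untreated and 1.93, 1.96 and 1.94 in the VPA-treated libraries, so that NEFL gained on NEFM by 0.19. INA lost ground to NEFL more strongly, with a log2 ratio of -0.26 ± 0.031 before and -0.94 ± 0.049 after VPA (SD, n = 3 each). NEFH and PRPH gained on NEFL. Their log2 ratios to NEFL moved by 1.18 for NEFH, from -6.67 ± 0.25 to -5.49 ± 0.21, and by 1.35 for PRPH, from -6.49 ± 0.60 to -5.14 ± 0.22. Per exon length NEFH still reached 0.023 of the NEFL level in VPA-treated cells, against 0.010 in untreated cells. The ratio of NES to VIM changed most, from -6.01 ± 0.15 to -3.73 ± 0.056 on the log2 scale. In all 5 ratios the conditions did not overlap (exact permutation test, two-sided, p = 0.1 each and 0.1 after Benjamini-Hochberg adjustment over the 5).

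**Figure D5:**
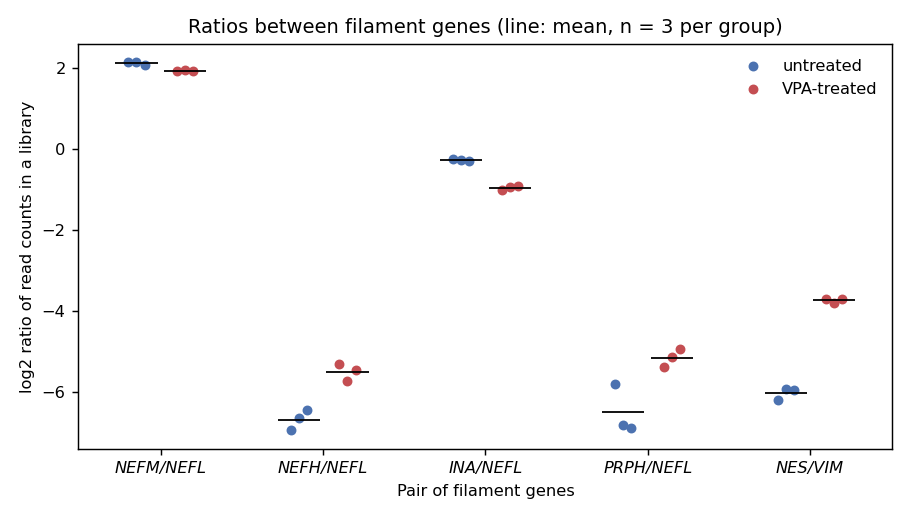
log2 ratio of the read counts of 2 filament genes within each library, with the mean of each group as a line (n = 3 per group). Every pair differs between conditions without overlap, NEFM/NEFL by the smallest step, -0.19, and NES/VIM by the largest, 2.28.

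Promoter sequences from RefSeq (GRCh38.p14), 250 bases before to 50 after the start, were matched for 5 of the 10 genes, INA, PRPH, VIM, NES and SYNM. NEFL, NEFM, NEFH, GFAP and DES were not matched. The 250 bases before the start are shown for 4 genes that cover the range of responses, the strongly raised NES and PRPH, the weakly raised INA and the lowered VIM. They lie at chr1:156677408-156677657 on the minus strand for NES, chr12:49294897-49295146 for PRPH, chr10:103276888-103277137 for INA and chr10:17227991-17228240 for VIM, the last 3 on the plus strand. Capitals mark the motifs searched for on both strands that were found, the GC box GGGCGG (read as CCGCCC on the other strand), the TATA box TATAAA and CAGCACC, the left part of the element bound by REST, a repressor of neuronal genes.
NES: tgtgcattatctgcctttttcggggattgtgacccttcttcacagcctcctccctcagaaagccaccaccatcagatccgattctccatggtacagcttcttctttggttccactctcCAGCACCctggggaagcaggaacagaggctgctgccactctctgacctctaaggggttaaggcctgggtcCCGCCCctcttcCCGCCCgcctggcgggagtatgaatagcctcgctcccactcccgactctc
PRPH: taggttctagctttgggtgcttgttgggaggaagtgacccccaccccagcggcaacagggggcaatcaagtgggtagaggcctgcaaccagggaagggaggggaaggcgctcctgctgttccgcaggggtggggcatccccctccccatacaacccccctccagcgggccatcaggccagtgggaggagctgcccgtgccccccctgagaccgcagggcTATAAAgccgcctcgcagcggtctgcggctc
INA: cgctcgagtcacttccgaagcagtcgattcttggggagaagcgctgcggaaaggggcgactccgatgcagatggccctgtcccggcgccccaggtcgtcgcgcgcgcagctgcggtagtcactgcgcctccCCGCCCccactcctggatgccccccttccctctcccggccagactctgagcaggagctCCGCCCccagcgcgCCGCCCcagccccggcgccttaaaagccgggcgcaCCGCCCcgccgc
VIM: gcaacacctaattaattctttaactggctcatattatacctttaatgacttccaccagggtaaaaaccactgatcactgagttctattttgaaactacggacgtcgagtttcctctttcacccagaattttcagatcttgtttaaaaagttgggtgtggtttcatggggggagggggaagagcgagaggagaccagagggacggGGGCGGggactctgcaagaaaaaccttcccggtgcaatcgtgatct

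The 4 promoters were unlike each other. INA had 4 GC boxes and a CpG observed over expected ratio of 0.958, higher than in 87.4% of all 35116 promoters of the table. PRPH had no GC box, a TATA box 31 bases before the start and a ratio of 0.386. VIM had 1 GC box and a ratio of 0.584. NES had 4 GC boxes, 2 of them before the start, and a ratio of 0.557, and held CAGCACC 132 bases before the start. The median ratio was 0.579 over all promoters and 0.809 over those of tested genes. SYNM, with a ratio of 0.929, had 4 GC boxes, 2 of which overlap, and a CCAAT box. A GC box was found in 4 of the 5 matched promoters and in 45.0% of all promoters, the TATA box in 1 of 5 and in 11.5%, the CCAAT box in 1 of 5 and in 34.6%, and CAGCACC in 1 of 5 and in 7.75%. GGACAGC, the right part of the REST element, the AP-1 site TGANTCA and the CRE core TGACGT were in none of the 5 windows and in 6.03%, 7.71% and 7.98% of all promoters.

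Tested genes next to the filament genes were read from RefSeq starts. Of 18 such neighbours 5 were up-regulated, 7 were higher at the adjusted p and 8 lower, with a median log2 fold change of -0.087. These counts stand beside 12.0%, 32.9% and 30.0% of all tested genes, and beside 29.4% up-regulated among genes under 50 normalized counts, where STC1, ST8SIA6, BCAN and TROAP-AS1 lie. Both neighbours of NES were up-regulated, CRABP2, a retinoic acid binding protein 22.2 kb away, with a log2 fold change of 2.51 (adjusted p = 1.19e-17 in edgeR) and BCAN, a brain proteoglycan 9.23 kb away, with 4.51 (adjusted p = 3.57e-07). BCAN had 1.05 ± 1.81 normalized counts in untreated cells (SD, n = 3), and its log2 fold change was 7.75 without untreated replicate 2. The other up-regulated neighbours were STC1, 1059 kb from NEFM, at 4.16, ST8SIA6, 77.8 kb from VIM, at 2.55, and TROAP-AS1. SPEG, a muscle kinase gene 8.11 kb from DES, rose by 0.96 (adjusted p = 2.66e-10 in edgeR). On the other side of NEFL, DOCK5 had 433 ± 21.1 and 419 ± 17.1 normalized counts (SD, n = 3 each), an adjusted p of 0.551 in edgeR. The genes on either side of INA, NT5C2 and PCGF6, were lower, with log2 fold changes of -0.26 and -0.27 (adjusted p = 0.00023 and 0.0040 in edgeR), although INA itself was higher. With ribosomal protein scaling NT5C2 lay at 0.020 and PCGF6 at 0.0076. EFTUD2 and KIF18B beside GFAP were also lower, by -0.29 and -0.36 on the log2 scale.

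Lists of other filament genes, of genes that link, phosphorylate, transport or degrade filament proteins and of regulators of their transcripts held genes that moved both ways. Of 77 genes in 6 lists 68 were tested, 10 were up-regulated, 27 were higher at the adjusted p and 27 lower, with a median of -0.016 on the log2 scale. Over all tested genes 12.0% were up-regulated, 32.9% were higher at the adjusted p and 30.0% lower. Considering the other intermediate filament genes, which include lamins and keratins, 1 of 10 tested was up-regulated, KRT8, the simple epithelial keratin, from 389 ± 51.3 to 1004 ± 63.3 normalized counts (SD, n = 3 each). Its partner KRT18 rose by 0.22 on the log2 scale, LMNA by 0.44 and IFFO2 by 0.40, and LMNB1 decreased by 0.67. Among the plakins, which tie filaments to junctions and other cytoskeletal systems, 1 of 6 was up-regulated, EPPK1 with a log2 fold change of 1.13. PPL rose by 0.93, PLEC by 0.30, and DSP, desmoplakin, decreased by 0.41. Among kinases of filament proteins 2 of 20 were up-regulated, CDK5R2, a neuronal activator of CDK5, from 6.27 ± 2.12 to 40.3 ± 1.61 normalized counts, and CAMK2B. CDK5R2 lies among the genes under 50 normalized counts, of which 29.4% were up-regulated. CSNK1D and GSK3A decreased by 0.37 and 0.39 on the log2 scale, and CDK5 itself had an adjusted p of 0.0681 in edgeR. Among 10 motors and adaptors, KIF5C, a kinesin heavy chain of the kind that carries neurofilaments, had a log2 fold change of 2.34 (adjusted p = 4.14e-18 in edgeR) and DYNC1I1 of 1.77. KIF5A rose by 0.70 and NDEL1 decreased by 0.38. Of 9 tested turnover and chaperone genes HSPB8 and HSPB1, small heat shock proteins, were up-regulated, with log2 fold changes of 1.50 and 1.04, although HSPB1 fell to 0.95 to 0.99 without untreated replicate 2, untreated replicate 3 or VPA-treated replicate 1. TRIM2, a ubiquitin ligase for neurofilament light chain, rose by 0.71, and UCHL1 by 0.42. Of 13 tested regulators RBFOX3 and ARHGEF28 were up-regulated, the latter an RNA-binding exchange factor known for binding NEFL mRNA, with a log2 fold change of 1.26. POU4F1 rose by 0.49 and TARDBP decreased by 0.33. REST had 714 ± 49.8 and 679 ± 44.0 normalized counts (SD, n = 3 each), an adjusted p of 0.319 in edgeR.

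Markers of the cell types in which these filaments are known were read beside them. The counts below stand beside 12.0% up-regulated over all tested genes. Among genes under 50 normalized counts, 29.4% were up-regulated. There lie SNAP25 and MAP2 of the neuron list, SLC1A2, AQP4 and ALDH1L1, MYOD1 and TTN, HES5, DCN of the fibroblast list and EPCAM of the kidney list. SNAP25, SLC1A2, AQP4, MYOD1, TTN and DCN, with untreated means under 10, passed the filter only through the VPA-treated libraries. Of 10 neuron markers 6 were tested and 5 up-regulated, among them GAP43 from 54.0 ± 6.05 to 398 ± 8.04 and TUBB3 from 162 ± 20.8 to 422 ± 26.1 normalized counts (SD, n = 3 each). SYP is listed at 0 in all libraries, and STMN2, ELAVL3 and ELAVL4 did not pass the filter. The summed level of the neuron list was 4288 to 4739 in untreated and 6622 to 6735 in VPA-treated libraries, most of it UCHL1. Of 8 astrocyte markers 6 were tested and 3 up-regulated, SLC1A2 from 2.44 ± 1.60 to 29.1 ± 3.79, AQP4 from 8.36 ± 2.13 to 81.9 ± 5.77 and ALDH1L1 from 10.1 ± 3.25 to 26.2 ± 2.99. SLC1A3 decreased by 0.46 on the log2 scale, and SOX9 had an adjusted p of 0.386 in edgeR. GJA1 rose by 0.59, below the fold threshold, from 1976 ± 43.6 to 2964 ± 72.9 (SD, n = 3 each). The summed level of the astrocyte list was 3463 to 3771 and 4246 to 4442, most of it GJA1. Of 9 muscle markers 4 were tested and 2 up-regulated, MYOD1 from 2.44 ± 1.61 to 34.9 ± 6.34 and TTN from 4.17 ± 2.06 to 26.2 ± 6.75. ACTA1 was lower, at 33.0 ± 8.61 and 22.1 ± 1.03 (log2 fold change -0.58, adjusted p = 0.0334 in edgeR), and MYH3 had 104 ± 6.65 and 100.1 ± 8.26. The adjusted p of ACTA1 was 0.128 without untreated replicate 1 or untreated replicate 2, and above 0.05 with each VPA-treated library left out in turn. MYF5 is listed at 0 throughout and MYOG at 0 in VPA-treated libraries. The muscle list summed to 141 to 156 and 186 to 194. Of 7 progenitor markers 4 were tested and 1 up-regulated, HES5 (1.02, and 0.84 and 0.96 without untreated replicate 1 or VPA-treated replicate 2), with summed levels of 1954 to 2142 and 1912 to 1987. PAX6, which had the smallest p of that list, fell from 753 ± 64.9 to 548 ± 38.8 (log2 fold change -0.46, adjusted p = 4.63e-06 in edgeR), and SOX2 had an adjusted p of 0.701. Of 7 fibroblast markers 6 were tested and 4 up-regulated, COL1A1 at 1.57, COL3A1 at 2.39, FN1 at 1.11 and DCN at 5.19. TWIST1 was not called, at 0.32, and PDGFRB had an adjusted p of 0.965 in edgeR. COL1A2 had 2 counts in total and did not pass the filter. The fibroblast list summed to 2647 to 2783 and 6298 to 6358, most of it FN1, with 1998 ± 87.8 and 4307 ± 80.1 (SD, n = 3 each). Of the 9 genes listed for kidney epithelium and this line, which check the label, all were tested and 4 up-regulated, among them PAX2 at 2.26 and CDH1 at 1.92, and they summed to 5389 to 5515 and 5748 to 5936. The part of any of these lists in the change of the filament genes was not tested.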

How the data were processed

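RNA-seq libraries of 3 untreated and 3 VPA-treated HEK293T samples were used. Reads were cleaned with SOAPnuke, placed on hg38 by STAR and assigned to genes by htseq-count, by the authors; the submitters' processing notes give STAR 2.7.10b and HTSeq 2.0.1. The deposited values are raw counts, 1 library per file, without normalization. The annotation and strand setting of the counting are not given in the sources used here. The 5 lines of htseq-count's own summary were dropped. Of listed reads, 6.80% to 7.69% lay off genes, 1.97% to 2.10% were ambiguous and 2.81% to 2.92% had several places.

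The test was that of edgeR 4.0.16, run in R 4.3.3 (TMM, filterByExpr with a count minimum of 10, robust quasi-likelihood fit on condition, prior count 0.125). A call needed both a log2 fold change of 1 or more in size and a Benjamini-Hochberg p below 0.05. Standard errors were obtained by dividing the fold change on the log2 scale by the square root of F. Normalized counts are scaled to the mean effective library. The fit was tested on simulated data with log2 changes of 1.5 or 2, set equally up and down. There edgeR recovered 98 of 99 and 98 of 98 changed genes and called 0 unchanged ones. Changes near 1 and an uneven balance of rises and falls were not simulated, so it does not bear on these or on the choice of scaling. DESeq2 1.42.0, other scalings and filters, glmTreat, a replicate block and omission of single libraries were alternatives. Ratios used a pseudocount of 0.5. Coordinates are RefSeq's on GRCh38.p14, and strands, lengths and overlaps are from GENCODE 44. The members, lists and alternatives were chosen with earlier results of these data known. The text names the 10 genes, each tested neighbour or overlapping gene that bears on them, and from each list called genes and those of smallest p up to 4, with single further genes chosen after their values were seen. Protein sequences were not used here.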

Additional observations from a re-analysis of the deposited data

How the results depend on the processing

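The count of 6 up-regulated filament genes was 6 or 7 with DESeq2, the other scalings, no filter, the replicate block or any library left out, and 5 with glmTreat. Requiring 10 counts or more throughout the libraries, it was 3, since NEFH, PRPH and DES, which have untreated libraries under that minimum, were then not tested. NEFM was the added gene, at 1.00 when scaled to library totals and 1.15 when scaled to ribosomal protein genes. At the adjusted p alone, where glmTreat asks for more than a log2 fold change of 1, it left 5 genes higher and 0 lower. Ribosomal protein scaling left 0 lower, with VIM at 0.0091. Over 137 comparisons of single filament genes under the alternatives 133 kept direction and call.

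Over all tested genes the 1833 higher calls became 1179 under that stricter minimum and 1149 with glmTreat. The 77 lower calls became 38 with library totals, 162 with no filter, 43 under the stricter minimum, 8 with glmTreat and 17 with ribosomal protein scaling. The 10 up-regulated partner genes became 6 with glmTreat.

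Other directions that changed were SOX2 (-0.024 and -0.0033 without untreated replicates 2 and 3), MYH3 (0.081 with library totals, 0.22 with ribosomal genes), DOCK5 (0.084 and 0.23 in the same order), IGF1R (0.0062 and 0.15), and, with ribosomal protein scaling, NT5C2 (0.020), PCGF6 (0.0076) and TROAP (0.10). Both scalings move the median of all genes upwards, to 0.14 and 0.28.

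The deviations of libraries with the same replicate number correlated with r of 0.13, 0.018 and 0.071, so the numbers were not taken as pairs. The replicate block gave 1835 higher and 77 lower calls, 6 filament genes up-regulated and NEFL at 1.06, and changed no filament call. Depth limits NEFH, PRPH, DES and GFAP most, whose untreated means lie under 15 normalized counts.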
